A study of Mus musculus with 6 samples.

Results

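Tmem176a and Tmem176b are a pair of neighbouring mouse genes on chromosome 6, followed here through every CD45+ cell class of metastatic and adjacent liver, with gamma-delta T, dendritic and monocytic cells in the foreground. The members were the features carrying these symbols, 2 of the 5301 genes held by any of the 3 matrices, and both were present in all 3. The pair was picked because earlier readings of these data had shown it high in those 3 kinds of cells. Its order over cell classes is therefore a description, and no test was attached to it.

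Both genes code for multi-pass membrane proteins of intracellular vesicles that are related to the MS4A (CD20-like) family and act as cation channels. Tmem176b, also called TORID, is known from immature and tolerogenic dendritic cells and as an inhibitor of the NLRP3 inflammasome, and the pair has been tied to the handling of MHC class II in dendritic cells. Both are also known in type 17 lymphocytes, the IL-17-producing class to which many gamma-delta T cells of barrier tissues belong.

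The cells came from livers of immunocompetent Balb/c mice that had received 4T07 (written 4TO7 in the labels) mammary carcinoma cells, a mouse metastasis model, by injection into the heart. CD45+ cells were sorted from a piece of liver and sequenced by droplet 3' single-cell RNA-seq. The groups were adjacent tumour-free tissue at day 3, micrometastasis at day 3 and macrometastasis at day 12, each from mice given Ctrl tumour cells or tumour cells carrying a Tim3 knock-down (Tim3-KD). Each of the 6 groups was 1 library, and each library was a pool of a pair of mice. The knock-down was in the injected tumour cells and not in the sequenced immune cells, so no transcript level measured here checks it. Because every group is 1 library, no difference between groups was tested. Intervals are 95% exact intervals (Poisson for levels, binomial for shares, conditional binomial for ratios) and cover counting error only, not the spread between mice or libraries. Lesion stage and day differ together between micrometastasis and macrometastasis and cannot be told apart.

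The matrices held 23008 cells, between 542 and 5502 per library, with a median of 6300 to 10248 UMIs (unique molecular identifiers, counts of captured RNA molecules) per cell. The adjacent Tim3-KD library was the smallest. Levels are UMIs per 1000000 UMIs (CPM) summed over the cells of a class, and cell classes were rebuilt from the 1642 genes shared by all matrices with the pair left out, so class names and shares may differ from those of the study. Between 0 and 11 cell barcodes were shared by any pair of libraries, 119 cells in all.

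The genes lie head to head. In GRCm38, Tmem176b (ENSMUSG00000029810.15) spans chr6:48833818-48841496 on the minus strand and Tmem176a (ENSMUSG00000023367.14) spans chr6:48840919-48847071 on the plus strand, and the annotated spans share 578 bases. Their nearest RefSeq start sites are 109 bases apart. The promoter windows, from 250 bases before to 50 bases after each of these starts, are shown because they are the stretch of DNA that the pair shares, 208 of 300 bases in opposite orientation. They were taken from RefSeq on GRCm38.p6 and read 5' to 3' on the strand of each gene, at chr6:48841233-48841532 (plus) and chr6:48841325-48841624 (minus). Capitals mark GAGGAA, a PU.1-type string that holds the shorter GGAA core of ETS-family factors. It was searched on both strands (TTCCTC on the other), and GGAA outside it is not marked.
Tmem176a: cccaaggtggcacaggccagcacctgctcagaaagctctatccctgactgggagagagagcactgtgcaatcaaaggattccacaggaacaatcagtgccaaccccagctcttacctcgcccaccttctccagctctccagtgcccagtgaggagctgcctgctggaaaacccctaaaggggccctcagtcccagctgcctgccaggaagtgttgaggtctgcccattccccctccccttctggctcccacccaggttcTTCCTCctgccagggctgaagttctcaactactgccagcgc
Tmem176b: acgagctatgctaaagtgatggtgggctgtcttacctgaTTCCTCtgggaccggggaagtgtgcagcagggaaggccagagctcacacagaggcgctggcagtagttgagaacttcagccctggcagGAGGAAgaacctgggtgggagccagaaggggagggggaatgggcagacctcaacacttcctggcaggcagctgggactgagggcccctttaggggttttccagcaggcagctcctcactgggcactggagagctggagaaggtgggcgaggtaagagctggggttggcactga

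The Tmem176a window held 1 match to GAGGAA and the Tmem176b window held 2, of which 1 is the same site read from the other strand. GAGGAA was present in 28.28% of 32851 windows of this length over 27025 genes. The AP-1 motif TGANTCA (in 7.808% of windows) had no match on either strand in these windows or in those of the other RefSeq starts of the pair. A match is a string of letters and no measurement of binding. The source of the counting rule does not state whether strand was used where the genes overlap, so reads from the shared 578 bases cannot be assigned with certainty.

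Across all 6 libraries together, the pair was highest in lesion macrophage-like cells (605 cells), at 319 CPM (306 to 333) for Tmem176a and 397 CPM (382 to 412) for Tmem176b. Haematopoietic progenitor-like cells followed at 144 and 219 CPM, Kupffer-like cells, the resident macrophages of the liver, at 115 and 237 CPM, and monocyte-like cells at 138 and 190 CPM. By the sum of both genes, macrophages, monocytes and progenitors came first. Endothelial-like cells, at the Tmem176a level of progenitor-like cells, gave 144 and 138 CPM, gamma-delta T cells 132 CPM (109 to 158) and 125 CPM (103 to 151), and dendritic-like cells 97.0 CPM (91.0 to 103) and 96.8 CPM (90.8 to 103). Patrolling monocyte-like cells, the blood-vessel-bound Ly6c-low kind, were lower at 73.9 and 60.8 CPM, and T-like cells outside the gamma-delta class were at 48.4 and 51.2 CPM. Between these lay an unnamed cluster of 464 cells led by Pf4, Thbs1 and Alb, with 113 CPM of the genes summed. The lower end of the order held basophil or mast-like cells at 31.9 and 40.4 CPM, neutrophil precursor-like cells at 10.9 and 13.6, NK or ILC1-like cells at 4.87 and 9.74, B-like cells at 4.01 and 3.40, and mature neutrophil-like cells at 1.18 and 1.59.

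Neighbours in this order mostly overlapped when libraries with at least 20 cells were set side by side. Tmem176a ranged from 158 to 442 CPM in lesion macrophage-like cells, 117 to 163 in progenitor-like, 108 to 130 in Kupffer-like, 85.4 to 219 in monocyte-like, 44.4 to 340 in gamma-delta T and 8.72 to 151 in dendritic-like cells. Tmem176b ranged from 158 to 503, 173 to 242, 219 to 316, 93.3 to 310, 14.8 to 293 and 8.72 to 131 CPM in the same classes. Endothelial-like cells ranged from 92.2 to 312 and from 72.8 to 277 CPM. Within the top of the order no class could be ranked above its neighbour in every library. B-like cells (1.33 to 10.8 CPM of Tmem176a) and mature neutrophil-like cells (0.536 to 1.59) stayed below the monocyte-like range in every such library. Over all libraries, monocyte-like cells held 31.4% of all Tmem176a and 30.0% of all Tmem176b UMIs, and Kupffer-like cells 18.3 and 26.3%. Gamma-delta T cells held 0.756 and 0.499%, and mature neutrophil-like cells, 33.2% of all cells, held 0.442 and 0.414%. By library, the monocyte-like share of Tmem176a ran from 11.4% (adjacent Tim3-KD) to 57.2% (adjacent Ctrl). Kupffer-like cells held more of both genes than monocyte-like cells in adjacent Tim3-KD and in both macrometastasis libraries. Their Tmem176a share there was 46.1%, 37.0% (macrometastasis Ctrl) and 30.7% (macrometastasis Tim3-KD).

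**Figure D1:**
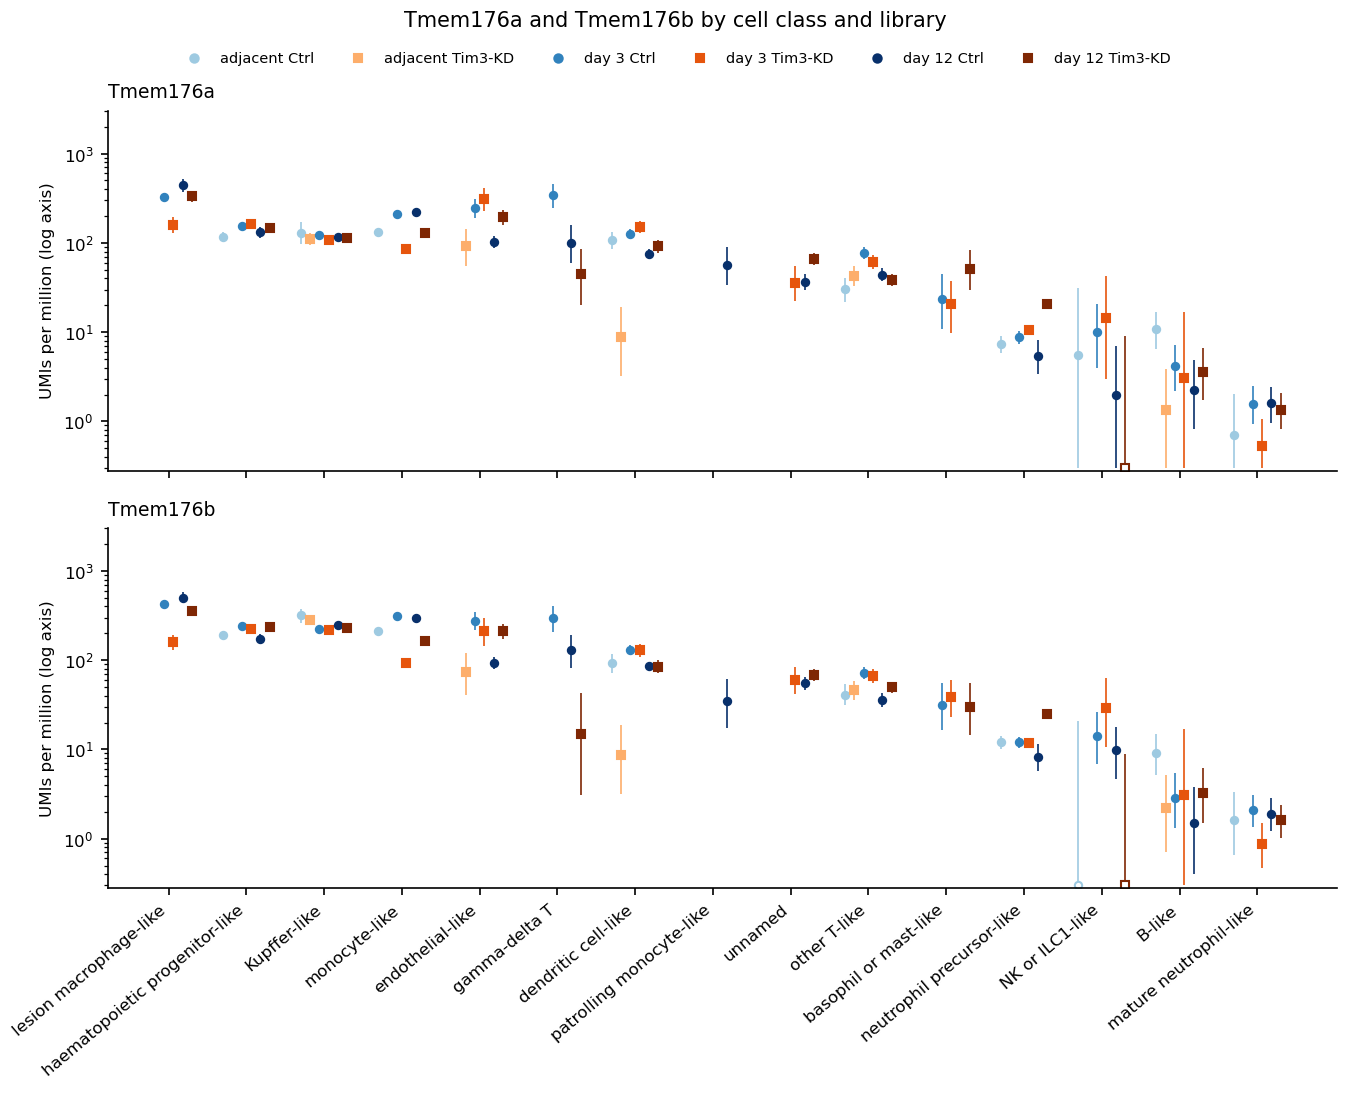
Level of Tmem176a (upper panel) and Tmem176b (lower panel) in CPM, on a log axis, for each cell class and each library with at least 20 cells of that class. Points are single libraries with 95% Poisson intervals and open symbols are libraries at 0, with day 3 for micrometastasis and day 12 for macrometastasis in the key. The lesion macrophage-like points lie at 158 CPM or above, and the mature neutrophil-like points at 2.09 CPM or below.

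Per cell, at least 1 UMI of Tmem176a was found in 68.4% of lesion macrophage-like cells, 54.0% of monocyte-like cells, 28.8% of gamma-delta T cells and 25.1% of dendritic-like cells. For Tmem176b the shares were 72.9, 59.5, 27.9 and 25.8%. Since depth differed between classes (a median of 10298, 11896.5, 5604 and 11561.5 UMIs in that order), each cell was also thinned to 1500 UMIs, below which no cell lay. The thinned shares for Tmem176a were 35.2, 19.1, 14.4 and 11.7%, and for Tmem176b 36.5, 25.7, 17.1 and 11.4%. B-like cells and mature neutrophil-like cells, taken as the background of free RNA, had thinned shares of 0.480 and 0.183% for Tmem176a and 0.349 and 0.249% for Tmem176b, at a median of 4098 and 5848 UMIs. All 4 foreground classes were above that background.

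Gamma-delta T cells were chosen by Trdc, the constant segment of the delta receptor chain, with at least 2 UMIs, together with at least 1 UMI of the CD3 genes Cd3d, Cd3e or Cd3g, within T-like, NK or ILC1-like or unnamed clusters. This gave 111 cells, of which 89 lay in T-like and 22 in NK or ILC1-like clusters. Cd3g was detected in 94.6% and Cd3d in 91.0% of them, but also Trbc1 and Trbc2 of the beta chain in 76.6 and 77.5%, Trac in 32.4% and the NK receptor Ncr1 in 32.4%. The class is therefore one of Trdc-positive CD3-positive cells and may hold other T and NK cells.

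In adjacent tissue, the 12 gamma-delta T cells of the Ctrl library had 0 UMIs of either gene, which allows up to 23.8 CPM (3 UMIs), and the 16 cells of the Tim3-KD library had 45 and 43 UMIs of Tmem176a and Tmem176b, or 229 and 219 CPM. In micrometastasis, 26 Ctrl cells gave 340 and 293 CPM from 44 and 38 UMIs, and 10 Tim3-KD cells gave 33.0 and 82.6 CPM from 2 and 5 UMIs. In macrometastasis, 26 Ctrl cells gave 100 and 128 CPM from 18 and 23 UMIs, and 21 Tim3-KD cells gave 44.4 and 14.8 CPM from 9 and 3 UMIs. The 2 genes were high together in the adjacent Tim3-KD and micrometastasis Ctrl libraries, while the direction between Ctrl and Tim3-KD was not the same at all sites. Only the macrometastasis pair of libraries had at least 20 cells each. There the Tim3-KD to Ctrl ratio of the summed pair was 0.259 (0.124 to 0.502), with 0.442 (0.175 to 1.04) for Tmem176a and 0.115 (0.0222 to 0.382) for Tmem176b. The interval for Tmem176a alone included 1. In Ctrl libraries the macrometastasis to micrometastasis ratio of the pair was 0.362 (0.242 to 0.532).

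Most of these UMIs lay in a small group of cells. Sub-clustering of the T, NK and ILC cells without the pair gave 13 sub-clusters, and 1 of them (sub-cluster 10, 64 cells, led by Blk, Avpi1, Serpinb1a and Lmna, below the Blk sub-cluster) had 705 CPM (619 to 799) of Tmem176a and 691 CPM (606 to 784) of Tmem176b. Blk, a Src-family kinase, is known in B cells and in IL-17-producing gamma-delta T cells. At least 1 UMI was present in 92.2 and 90.6% of the cells of this sub-cluster (57.8 and 65.6% after thinning), at a median of only 4125 UMIs per cell. Trdc was detected in 54.7% of its cells, Cd3g in 67.2% and Ncr1 in 1.56%, and no cell had a doublet score over 0.15. By library, Tmem176a and Tmem176b stood at 547 and 656 CPM in the 1 adjacent Ctrl cell, 426 and 444 in 8 adjacent Tim3-KD cells, 1130 and 881 in 24 micrometastasis Ctrl cells and 1005 and 1507 in 3 micrometastasis Tim3-KD cells. In macrometastasis the values were 612 and 583 CPM in 15 Ctrl cells and 616 and 877 CPM in 13 Tim3-KD cells. The Blk sub-cluster was thus high in every library, with 1 to 24 cells behind each value.

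Of the 111 gamma-delta T cells, 27 lay in the Blk sub-cluster, and they carried 108 of the 118 Tmem176a UMIs and 104 of the 112 Tmem176b UMIs of the class. Every one of these cells had a Tmem176a UMI and 96.3% had a Tmem176b UMI, at 580 and 559 CPM. The other 84 gamma-delta T cells were at 14.1 CPM (6.77 to 26.0) and 11.3 CPM (4.87 to 22.2), with 5.95% of cells positive for each gene. Their number in the Blk sub-cluster was 0 of 12 in adjacent Ctrl, 7 of 16 in adjacent Tim3-KD, 10 of 26 in micrometastasis Ctrl, 1 of 10 in micrometastasis Tim3-KD, 7 of 26 in macrometastasis Ctrl and 2 of 21 in macrometastasis Tim3-KD. The libraries with the higher class level were those with more of these cells. The 37 cells of the Blk sub-cluster that did not meet the Trdc and CD3 rule were as high, at 850 and 844 CPM.

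**Figure D2:**
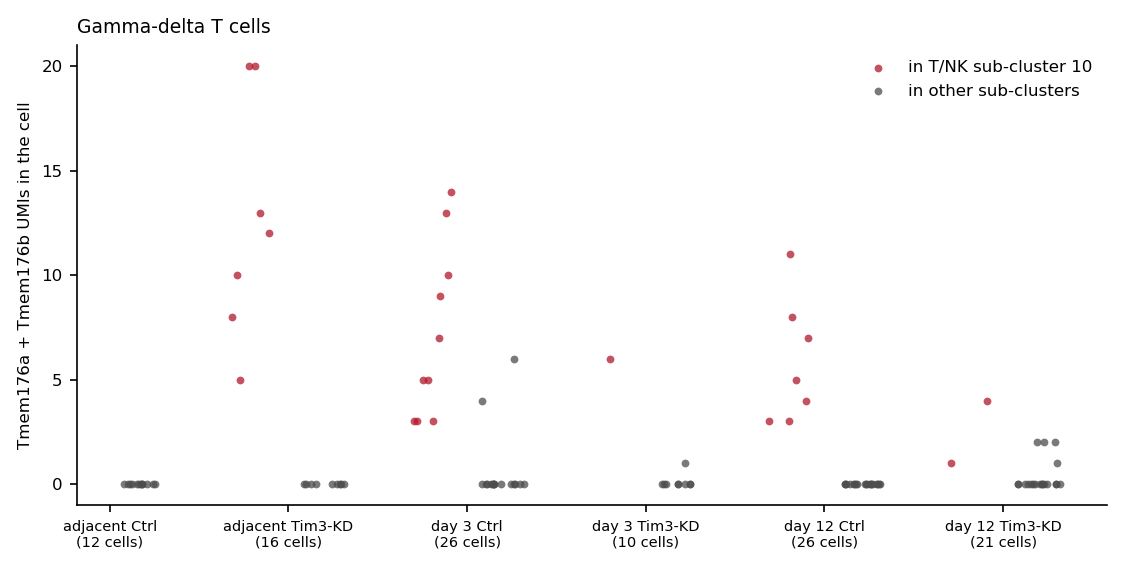
UMIs of Tmem176a and Tmem176b added up in each of the 111 gamma-delta T cells (1 point a cell), by library, with cells of the Blk sub-cluster (sub-cluster 10) in red and other cells in grey. The 27 red points hold 108 of the 118 Tmem176a and 104 of the 112 Tmem176b UMIs, and the 12 adjacent Ctrl cells are all at 0.

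Relative to all other T, NK and ILC cells, the pair was 20.0-fold (18.0 to 22.3) higher in the Blk sub-cluster, and 24.9-fold (20.5 to 30.2) within micrometastasis Ctrl alone. For the gamma-delta class as a whole the ratio to other T-like cells was 2.58 (2.24 to 2.97), and by library it was 4.25 (3.30 to 5.43) in micrometastasis Ctrl, 2.86 (2.00 to 3.98) in macrometastasis Ctrl and 0.673 (0.344 to 1.19) in macrometastasis Tim3-KD. A higher level in gamma-delta T cells was therefore not seen in every library. NK or ILC1-like cells, at 14.6 CPM of the pair, were close to B-like cells, the background, at 7.41 CPM, so no fold over them is given.

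Other T and NK sub-clusters held intermediate or low levels. A sub-cluster of 146 cells led by Cd7, Xcl1, Cd160, Itga1 and Trdc, named NK or ILC1-like by its markers but made up mostly of cells of the other T-like and gamma-delta T classes, had 180 CPM of Tmem176a and 172 CPM of Tmem176b, with a UMI in 25.3 and 27.4% of cells. Its gamma-delta T cells had almost none of these UMIs. A macrometastasis Tim3-KD cell had 2 of Tmem176a, a micrometastasis Tim3-KD cell had 1 of Tmem176b, and the others had none. The level thus came from the other cells of the sub-cluster. An unnamed sub-cluster of 463 cells led by Art2a and Cxcr6 had 118 and 137 CPM, with a UMI in 30.9 and 32.4% of cells. Naive-like T cells marked by Lef1, Tcf7 and Ccr7 (428 cells) had 2.77 CPM of each gene, 394 NK cells had 1.91 and 5.74 CPM, and 350 CD8-type T cells had 4.79 and 2.80 CPM. The naive, NK and CD8 groups were near the level of B-like cells. In the Art2a and Cxcr6 sub-cluster the Tim3-KD to Ctrl ratio of the pair was 1.64 (1.15 to 2.35) in adjacent tissue, 1.44 (1.14 to 1.83) in micrometastasis and 1.17 (0.887 to 1.56) in macrometastasis.

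Of a list of 25 type 17 lymphocyte genes, 8 were in all 3 matrices and could be read beside the pair. In the Blk sub-cluster 7 of the 8 were higher than in other T, NK and ILC cells by at least 2-fold, the limit used for all lists (genes with at least 100 UMIs over both groups), against 12.0% of 1193 genes, and 1 was lower, against 25.1%. Blk itself was 40.1-fold (27.8 to 57.7) higher, the nuclear lamin gene Lmna 11.4-fold, Rora 4.94-fold, the IL-7 receptor gene Il7r 4.33-fold, Maf 3.22-fold, Cxcr6 2.41-fold and Il18r1 2.37-fold. Ly6a was the lower one, with 0 UMIs in the sub-cluster. These genes took part in the clustering, so their count describes the sub-cluster and tests nothing. Over the whole gamma-delta class 2 of the 8 were higher than in other T-like cells, Blk by 11.0-fold (7.56 to 16.0) and Lmna by 2.93-fold (2.35 to 3.61), against 7.4% of 1148 genes, and none was lower, against 10.3%.

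Dendritic-like cells numbered 784. Their markers were present: Cst3 in 99.9%, the MHC class II gene H2-Ab1 in 94.0%, the growth factor receptor gene Flt3 in 65.1%, Naaa in 57.0%, the cDC1 lectin gene Clec9a in 51.0% and the plasmacytoid marker Siglech in 35.5%. Tmem176a and Tmem176b stood at 107 and 93 CPM in adjacent Ctrl (41 cells), 8.72 and 8.72 in adjacent Tim3-KD (26 cells), 127 and 131 in micrometastasis Ctrl (218 cells) and 151 and 129 in micrometastasis Tim3-KD (130 cells). Macrometastasis gave 75.6 and 84.9 CPM in Ctrl (242 cells) and 91.1 and 84.5 CPM in Tim3-KD (127 cells). The adjacent Tim3-KD library was far below the other 5, which lay between 75.6 and 151 CPM.

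The Tim3-KD to Ctrl ratio of the pair in dendritic-like cells was 0.0872 (0.0440 to 0.157) in adjacent tissue, 1.08 (0.944 to 1.24) in micrometastasis, and 1.09 (0.945 to 1.26) at the later stage. In both lesion stages the interval included 1. In Ctrl libraries the pair was 1.29-fold (1.08 to 1.56) higher in micrometastasis than in adjacent tissue, and macrometastasis was 0.621 (0.554 to 0.696) of micrometastasis, a ratio of 0.627 (0.532 to 0.738) in Tim3-KD.

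Within the dendritic cells the pair was highest in 2 of the 10 sub-clusters. Mature dendritic-like cells (sub-cluster 8, 20 cells), led by Tbc1d4 and the lymph-node homing receptor gene Ccr7, had 745 CPM (641 to 862) of Tmem176a and 565 CPM (475 to 667) of Tmem176b, with a UMI in 95 and 80.0% of cells. Sub-cluster 2, 154 cells led by H2-Ab1, Clec10a and Itgax, had 384 CPM (355 to 415) and 389 CPM (360 to 420), with a UMI in 76.6 and 80.5% of cells (40.3 and 36.4% after thinning). It kept no cell type name, since only 2 markers of its best class were higher in it and 3 were required. Csf1r, a monocyte and macrophage marker, was present in 68.2% and S100a4 in 90.3% of its cells, beside Clec10a in 46.8%, Itgax in 61.0% and Flt3 in 45.5%. Below it is called the Clec10a sub-cluster.

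By library, the Clec10a sub-cluster had 527 and 447 CPM of Tmem176a and Tmem176b in 9 adjacent Ctrl cells, 423 and 445 in 53 micrometastasis Ctrl cells and 349 and 312 in 42 micrometastasis Tim3-KD cells. In macrometastasis it had 379 and 401 CPM in 33 Ctrl cells and 297 and 322 CPM in 16 Tim3-KD cells, and the adjacent Tim3-KD library held 1 cell of it. All libraries with more than 1 such cell were thus high. Tim3-KD was below Ctrl at both lesion stages, but in macrometastasis from 16 Tim3-KD cells, under the 20 required for a ratio. In micrometastasis the ratio was 0.760 (0.645 to 0.894). Mature dendritic-like cells had 855 and 468 CPM in micrometastasis Ctrl, 1034 and 931 in micrometastasis Tim3-KD, 487 and 475 in macrometastasis Ctrl and 832 and 583 in macrometastasis Tim3-KD, from 20 cells in all.

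Plasmacytoid dendritic-like cells (284 cells), the type I interferon producers, had 43.0 and 47.4 CPM, with a UMI in 15.1 and 14.1% of cells. Conventional type 1 dendritic-like cells, the cross-presenting cDC1 (301 cells), had 4.29 and 8.39 CPM, with a UMI in 3.99 and 5.65% of cells. After thinning the cDC1-like share was 0.332 and 0.664%, near the 0.480 and 0.349% of B-like cells, and was read as background. No fold over cDC1-like cells is given for that reason. The Clec10a sub-cluster was 8.55-fold (7.46 to 9.84) above plasmacytoid dendritic-like cells.

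The share of dendritic-like cells in the Clec10a sub-cluster differed between libraries. It was 22.0% (9 of 41) in adjacent Ctrl, 3.85% (1 of 26) in adjacent Tim3-KD, 24.3% in micrometastasis Ctrl, 32.3% in micrometastasis Tim3-KD, 13.6% in macrometastasis Ctrl and 12.6% in macrometastasis Tim3-KD. The adjacent Tim3-KD library, where the pair was at 8.72 CPM, had the lowest share. In macrometastasis the shares were close while Tmem176a was lower in Ctrl, and mature dendritic-like cells made up 2.48% in Ctrl and 5.51% in Tim3-KD. Within this sub-cluster the macrometastasis to micrometastasis ratio in Ctrl was 0.899 (0.781 to 1.03), against 0.621 over all dendritic-like cells. The part of the sub-cluster share in the class level was not tested beyond these values.

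**Figure D3:**
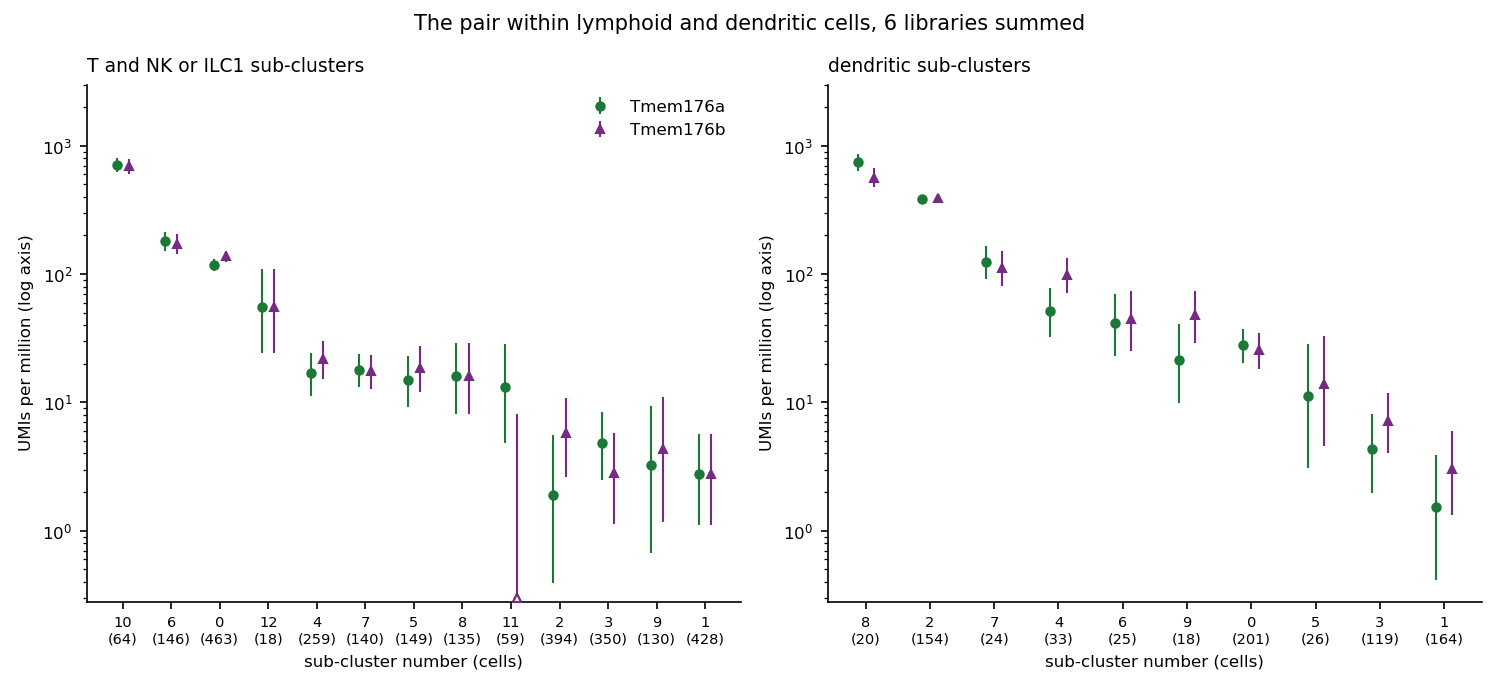
Level of both genes in CPM (log axis) in each T, NK and ILC sub-cluster and each dendritic sub-cluster, the 6 libraries summed, with 95% Poisson intervals; an open symbol marks 0 UMIs. Sub-cluster 10 of the T and NK cells (the Blk sub-cluster) stands at 705 and 691 CPM, and dendritic sub-clusters 8 and 2 at 745 and 384 CPM of Tmem176a.

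MHC class II and Ms4a genes were read beside the pair within dendritic cells. Of the 9 MHC class II genes that could be compared between the Clec10a sub-cluster and cDC1-like cells, 1 was higher, the lysosomal protease gene Ctss by 3.33-fold (3.10 to 3.59), against 22.0% of 574 genes. The class II chains H2-Aa, H2-Ab1 and H2-Eb1 were near equal, with ratios of 0.939, 0.952 and 0.882. All 3 Ms4a genes that could be compared were higher, Ms4a4c by 24.7-fold (19.7 to 31.3), Ms4a6d by 22.0-fold (16.7 to 29.4) and Ms4a6c by 8.94-fold (7.99 to 10.0). Against plasmacytoid dendritic-like cells, 6 of 9 MHC class II genes were higher and none was lower, against 19.1 and 38.5% of 582 genes, with H2-Aa at 2.89-fold, H2-Ab1 at 3.15-fold and H2-Eb1 at 3.52-fold beside 8.55-fold for the pair. There 3 of 5 Ms4a genes were higher (Ms4a6d by 14.4-fold, Ms4a4c by 7.83-fold and Ms4a6c by 7.68-fold), and the B cell gene Ms4a1 was lower at 0.0255. Between Tim3-KD and Ctrl dendritic-like cells of micrometastasis, none of 10 MHC class II, 4 inflammasome and 4 Ms4a genes was past 2-fold in either direction, against 3.59% of 780 genes higher and 3.85% lower. Within the Clec10a sub-cluster the 1 inflammasome gene that could be compared, Il1b, was lower at 0.388 (0.332 to 0.451), against 5.23% of 172 genes, and none of 8 MHC class II and 4 Ms4a genes was past 2-fold.

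Monocyte-like cells (2196 cells) carried Ccr2, the receptor for exit from bone marrow, in 99%, Ly6c2 in 97.1%, S100a4 in 98.7% and Csf1r in 84.1% of cells. Tmem176a and Tmem176b stood at 134 and 211 CPM in adjacent Ctrl (244 cells), 104 and 207 in adjacent Tim3-KD (16 cells), 208 and 310 in micrometastasis Ctrl (675 cells) and 85.4 and 93.3 in micrometastasis Tim3-KD (777 cells). Macrometastasis gave 219 and 296 CPM in Ctrl (156 cells) and 130 and 163 CPM in Tim3-KD (328 cells). Tim3-KD was below Ctrl for both genes at both lesion stages, and micrometastasis Tim3-KD was the lowest library. For the pair, the Tim3-KD level was 0.345 (0.327 to 0.363) of Ctrl at the micrometastasis stage and 0.568 (0.525 to 0.614) at the macrometastasis stage.

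Over all genes the trimmed mean log2 ratio of the same libraries was -0.22 and -0.16. With coarser clusters (resolution 0.5) the log2 ratio of the pair in micrometastasis was -0.93 instead of -1.54, and in macrometastasis it turned from -0.82 to 0.12. At that resolution the monocyte-like class was another set of cells, 2455 in all, and no cluster was named lesion macrophage-like.

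The monocyte-like class was made of 2 clusters that differed in the pair. A cluster of 1553 cells led by Ms4a4c, Ccr2 and Thbs1 (cluster 5) had 232 CPM (224 to 239) of Tmem176a and 338 CPM (329 to 347) of Tmem176b. A cluster of 643 cells led by F13a1 and Ly6c2 (cluster 12), with the proliferation marker gene Mki67 in 91.6% of cells and a median of 25654 UMIs, had 53.6 CPM (50.4 to 57.1) and 55.6 CPM (52.3 to 59.1). Below, cluster 12 is called the cycling and cluster 5 the non-cycling cluster. The names rest on the Mki67 share of cluster 12, and no such share is given for cluster 5. The clusters also differed in depth (a median of 10201 UMIs in cluster 5) and in the precursor marker Ms4a3, at 3.62 CPM in cluster 5 and 196 CPM in cluster 12. The non-cycling cluster was 5.21-fold (4.97 to 5.47) above the cycling one, by 4.84, 4.56, 4.32 and 5.80-fold in adjacent Ctrl, micrometastasis Ctrl, micrometastasis Tim3-KD and macrometastasis Tim3-KD. This gap was of like size in all 4 libraries. The cycling cluster made up 36.5% of monocyte-like cells in adjacent Ctrl, 13.5% in micrometastasis Ctrl, 44.3% in micrometastasis Tim3-KD, 4.49% in macrometastasis Ctrl and 34.1% in macrometastasis Tim3-KD, and none of the 16 cells in adjacent Tim3-KD.

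Within the non-cycling cluster Tmem176a and Tmem176b were at 242 and 422 CPM in adjacent Ctrl, 104 and 207 in the 16 cells of adjacent Tim3-KD, 258 and 393 in micrometastasis Ctrl, 176 and 212 in micrometastasis Tim3-KD, 241 and 325 in macrometastasis Ctrl and 250 and 328 in macrometastasis Tim3-KD. The Tim3-KD libraries of day 3 were the lowest, and the macrometastasis libraries were level. Summed over the pair, Tim3-KD stood at 0.598 (0.562 to 0.635) of Ctrl at day 3 and at 1.02 (0.939 to 1.11) at day 12. Within the cycling cluster it was 0.631 (0.552 to 0.722) in micrometastasis, from 66.5 and 76.2 CPM in Ctrl and 47.0 and 43.0 CPM in Tim3-KD. The macrometastasis difference of the whole class was thus not present within its larger cluster, whereas Tim3-KD was still 1.67-fold lower in micrometastasis. The difference between these ratios was not tested.

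Lesion macrophage-like cells had 326 and 421 CPM in micrometastasis Ctrl (434 cells), 158 and 158 in micrometastasis Tim3-KD (67 cells), 442 and 503 in macrometastasis Ctrl (37 cells) and 332 and 358 in macrometastasis Tim3-KD (57 cells). Tim3-KD was again the lower library, with a day 3 ratio of 0.424 (0.366 to 0.489) for the pair and a day 12 ratio of 0.731 (0.634 to 0.843). Kupffer-like cells differed little, with ratios of 0.873, 0.952 and 0.938 in adjacent tissue, micrometastasis and macrometastasis. Other T-like cells had 1.25, 0.863 and 1.10 in the same order. In micrometastasis their Art2a and Cxcr6 sub-cluster went the other way, as given above, and their make-up differed. In Ctrl and Tim3-KD that sub-cluster made up 18.9 and 29.7% of these cells, and the Blk sub-cluster 3.39 and 0.560%. The CD8-type sub-cluster made up 18.2 and 31.7%, and the naive-like one 23.5 and 7.28%. Their part in the class ratio was not tested.

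**Figure D4:**
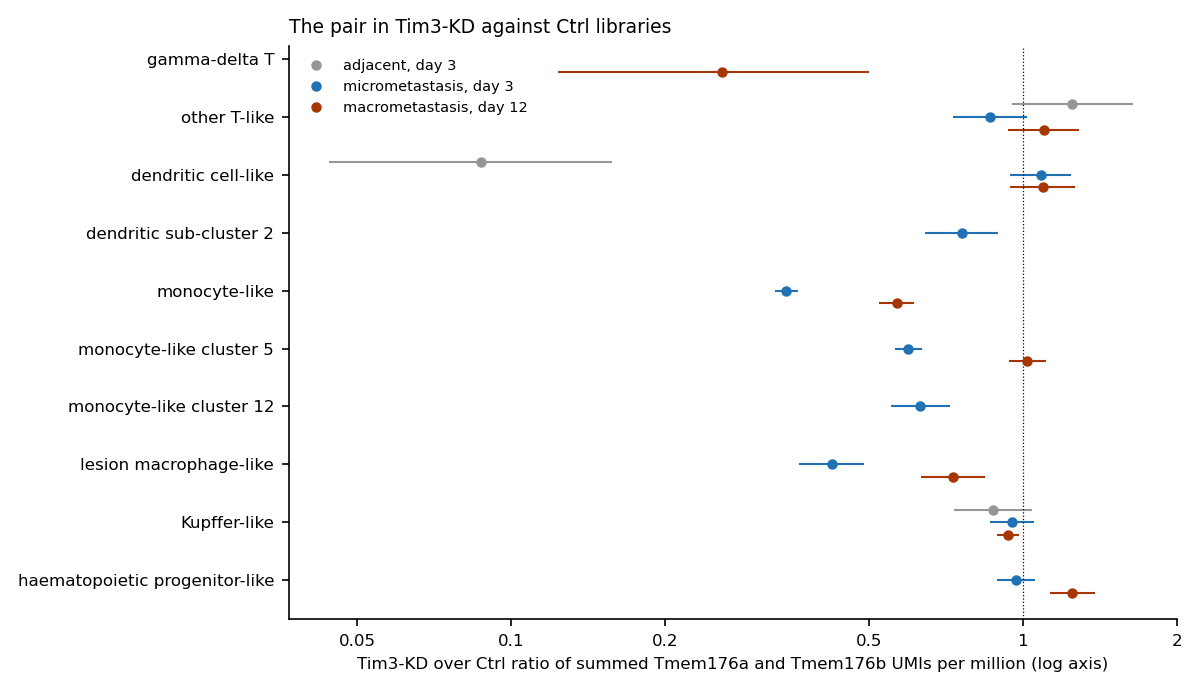
Ratio of Tim3-KD to Ctrl in the summed level of Tmem176a and Tmem176b (log axis, 1 means equal) by cell class and site, with 95% counting intervals. In micrometastasis monocyte-like cells lie at 0.345, their non-cycling cluster 5 at 0.598 and lesion macrophage-like cells at 0.424, while dendritic-like cells lie at 1.08.

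Between the micrometastasis libraries, Tmem176b differed more than Tmem176a in monocytes. The Tim3-KD to Ctrl ratio in monocyte-like cells was 0.301 (0.28 to 0.323) for Tmem176b and 0.411 (0.380 to 0.444) for Tmem176a. In the non-cycling cluster it was 0.541 (0.498 to 0.587) and 0.684 (0.623 to 0.751), so that the 2 intervals did not overlap in either case. In macrometastasis the ratios of the whole class were closer, 0.549 for Tmem176b and 0.593 for Tmem176a.

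Between sites, the pair in monocyte-like cells of Ctrl was 1.5-fold (1.43 to 1.58) higher in micrometastasis than in adjacent tissue, and the macrometastasis to micrometastasis ratio was 0.995 (0.927 to 1.07). Within the non-cycling cluster these ratios were 0.981 (0.926 to 1.04) and 0.870 (0.809 to 0.936). In Tim3-KD the macrometastasis to micrometastasis ratio was 1.64 (1.54 to 1.74) over the class and 1.49 (1.38 to 1.6) within the non-cycling cluster. Patrolling monocyte-like cells were at 0.237 (0.181 to 0.304) of the non-cycling cluster, and lesion macrophage-like cells at 1.26 (1.21 to 1.30).

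The MHC class II genes were lower alongside the pair. In micrometastasis 9 of 10 MHC class II genes were at least 2-fold lower in Tim3-KD than in Ctrl monocyte-like cells, against 11.5% of 1982 genes, and none was higher, against 4.84%. The list's median log2 ratio was -2.00, against -0.20 over all genes. The class II chains H2-Ab1, H2-Aa and H2-Eb1 were at 0.121, 0.130 and 0.156, the class II transactivator gene Ciita at 0.0856 and the costimulatory receptor gene Cd40 at 0.174. The peptide-loading genes H2-DMb1, H2-DMa and H2-DMb2 were at 0.356, 0.482 and 0.489 and Ctss at 0.441, and the exception was the costimulatory ligand gene Cd80 at 0.671. Within the non-cycling cluster 7 of 10 were lower, against 4.80% of 1520 genes, with H2-Ab1 at 0.212, H2-Aa at 0.235, H2-Eb1 at 0.277, Ciita at 0.147, Cd40 at 0.190, H2-DMb1 at 0.282 and H2-DMb2 at 0.369, while Ctss was at 0.842. In macrometastasis 5 of 8 were lower over the class, against 11.5% of 1084 genes, and 4 of 6 within the non-cycling cluster, against 6.11% of 540, with H2-Ab1 at 0.469. The pair itself was level there.

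Of the inflammasome list, 4 of 9 genes were lower in micrometastasis Tim3-KD monocyte-like cells: the cytokine genes Il1b (0.242), Il18 (0.319) and Il1a (0.321) and the IL-1 receptor antagonist gene Il1rn (0.294), against 11.5% of all 1982 genes. The sensor gene Nlrp3 was at 0.720 and Txnip at 1.52. Within the non-cycling cluster none was past 2-fold lower, against 4.8% of 1520 genes, with Il1b at 0.518, Il1rn at 0.547 and Nlrp3 at 1.16, and Txnip was higher at 2.22, against 2.89% of genes. Of 8 Ms4a genes, relatives of the pair, 4 were lower over the class (Ms4a7 at 0.382, Ms4a6d at 0.445, Ms4a4c at 0.467 and Ms4a6b at 0.484) and Ms4a3, a marker of monocyte and granulocyte precursors, was 7.85-fold (6.78 to 9.14) higher, against the same 11.5% of genes lower and 4.84% higher. Within the non-cycling cluster none of 7 was lower and 1, Ms4a8a, was higher at 2.02, against 4.8% and 2.89% of genes. At a 1.5-fold limit 2 of the 9 inflammasome genes and none of the Ms4a genes were lower in the cluster, against 13.2% of genes. In macrometastasis none of 4 inflammasome and 7 Ms4a genes was 2-fold lower over the class, against 11.5% of 1084 genes. There 1 Ms4a gene was higher, against 10.5%. At a 1.5-fold limit 3 of these 4 inflammasome genes and none of the Ms4a genes were lower, against 28.9%. Between the non-cycling and the cycling cluster, where the pair was 5.21-fold apart, 7 of 9 MHC class II genes, 5 of 5 inflammasome genes and 3 of 6 Ms4a genes were higher in the non-cycling one, against 30.8% of 1265 genes. Of the same genes 1, Ms4a3, was lower there, at 0.0185, against 9.33%.

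The balance of the pair was compared between classes as the ratio of Tmem176b to Tmem176a UMIs, which depends on transcript length and capture and is not a level of one gene against the other. Kupffer-like cells had a ratio of 2.07 (1.98 to 2.17), with 1.82 to 2.54 over their libraries. Progenitor-like cells had 1.52 (1.44 to 1.61), the non-cycling monocyte cluster 1.46 (1.4 to 1.52), lesion macrophage-like cells 1.24 (1.17 to 1.32) and the cycling monocyte cluster 1.04 (0.95 to 1.13). Dendritic-like cells had 0.998 (0.913 to 1.09), gamma-delta T cells 0.949 (0.726 to 1.24) and mature dendritic-like cells 0.758 (0.603 to 0.951). Kupffer-like cells thus held more Tmem176b per Tmem176a than the monocyte, lesion macrophage and progenitor classes. By library, gamma-delta T cells ran from 0.333 (9 and 3 UMIs in macrometastasis Tim3-KD) to 1.28 where at least 20 cells were held, and dendritic-like cells from 0.856 to 1.12. NK or ILC1-like cells had 2.00, with 0 to 5 by library, and cDC1-like cells 1.95, both from few UMIs. In the non-cycling cluster the ratio was 1.523 in micrometastasis Ctrl and 1.203 in micrometastasis Tim3-KD, and 1.348 and 1.316 in macrometastasis.

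**Figure D5:**
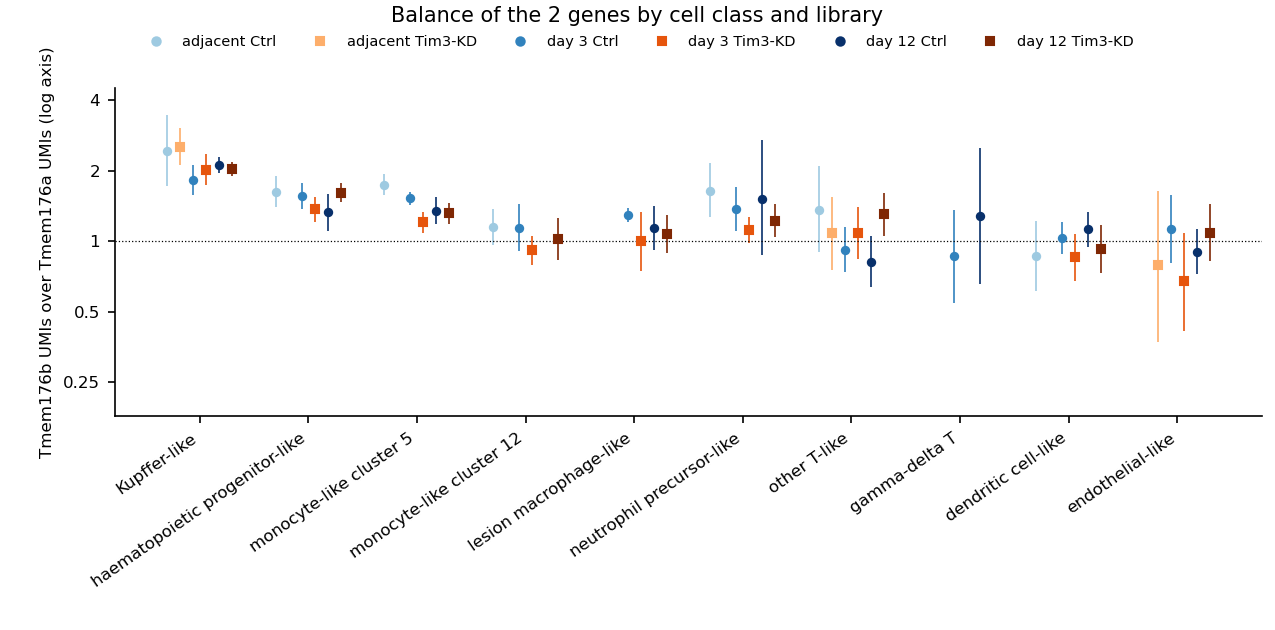
Ratio of Tmem176b to Tmem176a UMIs (log axis) by cell class and library, with 95% counting intervals. Libraries with at least 20 cells of a class and 20 UMIs of the pair are drawn, and the Kupffer-like ones lie between 1.82 and 2.54.

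The genes were found in the same cells. After thinning, 10.8% of gamma-delta T cells had both, where the product of the single shares is 2.47%. The same pair of values was 5.36 and 1.33% in dendritic-like cells, 10.1 and 4.91% in monocyte-like cells and 5.90 and 4.00% in Kupffer-like cells. Of the 16 gamma-delta T cells with a thinned Tmem176a UMI, 75.0% also had Tmem176b, against 7.37% of those without. As a ratio of these values the excess was smaller within the narrower groups, with 43.8 against 37.9% in the Blk sub-cluster and 18.8 against 14.6% in the Clec10a sub-cluster.

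Across 54 class-by-library sums of at least 50 cells, log2(CPM + 10) of Tmem176a and of Tmem176b had a Pearson correlation of 0.98. Among 1642 genes, those most like the pair were Ifi44 and Bst2 (0.84), Ifi44l (0.79), Gatm (0.76), Cmtm3 (0.75), Ifi202b, Maged1 and Frmd4a (0.74) and Dnajb14 and Mx1 (0.72). With log2(CPM + 1) 7 of these 10 stayed among the 10 most alike and with Spearman correlation 5 did, and Gatm, Ifi202b and Dnajb14 stayed in neither. The points share libraries and sequencing depth, and the correlations carry no p. Ifi44 was at 225 CPM in the non-cycling monocyte cluster and 259 CPM in Kupffer-like cells but had no UMI in the Blk sub-cluster. Bst2 was at 107 CPM (75.3 to 147) there, beside 90.1 CPM in T-like cells outside the gamma-delta class. The likeness over classes thus did not extend to the Blk sub-cluster for Ifi44 or Bst2.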

How the data were processed

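Members, gene lists and comparisons were chosen with earlier results of these data known. CD45+ liver cells of 6 libraries, 1 per group, were profiled by droplet 3' single-cell RNA-seq. Per the labels and the study's methods, reads were trimmed with Trim Galore 0.4.3 and aligned with STAR 2.7.7a to GRCm38, reads in exons or introns were counted, cells with few UMIs or genes or a high mitochondrial share were removed, and doublets were removed before deposit. The values deposited by the authors are scores: log-normalized expression with the depth of the cell regressed out, scaled per gene and capped at 10, with 1 matrix per site. The scores were inverted to UMIs, and 99.99971, 99.99988 and 99.99722% of the values above zero in adjacent, micrometastasis and macrometastasis matrices came out whole (tolerance 0.05), with 100% for both members. On simulated data, 100% of UMIs over 1498 genes and 2345 cells were recovered.

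Cells were clustered on 1642 shared genes without the pair (30 principal components, 15 neighbours, Leiden resolution 1, 27 clusters) and named from listed class markers. Cells with simulated-doublet scores over 0.15 were kept and left out in an alternative. Levels are summed UMIs per 1000000 UMIs (CPM), given per library, with 95% exact intervals. Ratios between libraries rest on at least 20 cells in each, and no test was run. Library totals ranged from 7086542 to 79972014 UMIs, and 3 UMIs were taken as the floor. Of 4 promoter motifs searched, 2 are not reported here. Named genes were the pair, the 10 genes with the most similar pattern, members of the type 17, MHC class II, inflammasome and Ms4a lists with most UMIs or past 2-fold, and the leading class markers. Python 3.11.15, numpy 2.4.6, scipy 1.17.1, pandas 2.3.3, scikit-learn 1.9.0, leidenalg 0.10.2, igraph 0.11.9 and matplotlib 3.10.9 were used.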

Additional observations from a re-analysis of the deposited data

Results flagged for a closer look

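In dendritic-like cells the Tim3-KD to Ctrl ratio of Tmem176a and Tmem176b summed lay below 1 at 1 site and above 1, within counting error, at the others. The Tim3-KD to Ctrl ratio was 0.0872 in adjacent tissue, where Tim3-KD was lower, and 1.08 in micrometastasis and 1.09 in macrometastasis, where the counting intervals included 1. The adjacent Tim3-KD library held 26 dendritic-like cells, of which 1 lay in the Clec10a sub-cluster that carried much of the pair. The difference between sites was not tested.

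In the non-cycling monocyte cluster (cluster 5) the ratio was 0.598 in micrometastasis and 1.02 in macrometastasis. The former interval lay below 1 and the latter included it, and the difference between sites was not tested.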

How the results depend on the processing

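All values here are log2 ratios of the summed pair, and each group is 1 library of a pair of mice, so that the spread between mice is unknown and depth limits only the counting error. Dendritic-like and gamma-delta T ratios stayed within their counting intervals under every alternative run on the whole class. The Clec10a sub-cluster and the Blk sub-cluster, read on their own, did not follow their classes (in the text as ratios and levels). In monocyte-like cells the Tim3-KD to Ctrl ratio in micrometastasis was -1.54, and it was -1.12 as a mean over cells, -1.32 relative to the trimmed mean of all genes, -1.39 at resolution 2, -0.93 at resolution 0.5, -1.36 when the pair took part in the clustering, and, in alternatives chosen after seeing the data, -0.74 in cluster 5, -0.66 in cluster 12 and -1.24 in lesion macrophage-like cells. In macrometastasis it was -0.82, and it was -0.40 as a mean over cells, -0.65 relative to the trimmed mean, -0.51 at resolution 2 and -0.45 in lesion macrophage-like cells. It turned to 0.12 at resolution 0.5 (0.12 for each gene) and to 0.030 in cluster 5 (0.050 for Tmem176a and 0.015 for Tmem176b), and the cause was not tested. At resolution 0.5 the class was another set of 2455 cells, with no cluster named lesion macrophage-like beside it. F13a1 and Ass1, leading genes of cluster 12, were then among the leading genes of a progenitor-like cluster of 1163 cells. As a mean over cells, micrometastasis against adjacent tissue in Ctrl was 0.24 instead of 0.59, and macrometastasis against micrometastasis -0.12 instead of -0.01. Not run, with fewer than 20 cells left in a library, were gamma-delta T cells of macrometastasis without cells under 3000 UMIs, without high doublet scores or with at least 3 Trdc UMIs, dendritic-like cells of adjacent tissue without high doublet scores, and cluster 12 of macrometastasis. No analysis paired by replicate within a site was possible, because each group was 1 library. Ctrl and Tim3-KD could be paired by site over the 3 sites, and such a fit was not run. The sites differ in tissue, lesion stage or day and are not replicates of the knock-down.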

Other observations

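Outside the gamma-delta T, dendritic and monocytic cells, the pair also differed between the macrometastasis libraries in neutrophil precursor-like cells, with a Tim3-KD to Ctrl ratio of 3.35 (2.55 to 4.46) at 1 library each, and in endothelial-like cells, with 2.07 (1.73 to 2.46). In micrometastasis the same ratios were 1.06 (0.938 to 1.20) and 1.00 (0.749 to 1.33). Haematopoietic progenitor-like cells had 0.970 in micrometastasis and 1.25 (1.13 to 1.39) in macrometastasis. The differences between sites were not tested.

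Over 12 T, NK and ILC sub-clusters of at least 50 cells, a reading added after seeing the data, the genes with the pattern most like the pair were Rnase4, Ckb and Tnf (Pearson correlation of 0.90 each), and 0 of the 10 genes named over all classes were among the 10 named here. Tnf was at 159 CPM in the Blk sub-cluster, the sub-cluster with the highest level of the pair.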
